A study of Drosophila melanogaster with 2 samples.

Results

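The 8 genes described here, zld, grh, smg, bnk, nullo, Sry-alpha (sry-alpha), Sxl and sisA, act in zygotic genome activation, in cellularization or in the embryonic count of X chromosomes. They were taken by symbol from 13968 protein-coding genes of the Ensembl release 115 models of the fly genome, and all 8 had a gene model. A region of ADD1-GFP chromatin immunoprecipitation followed by sequencing (ChIP-seq) belonged to a gene when its summit lay within 500 bp of an annotated start site or inside the gene body. The embryos of Drosophila melanogaster were 0 to 14 h old and of both sexes, taken whole from a transgenic line that stably carries ADD1 (CG8290) fused to GFP at its C terminus. ADD1 is a nuclear protein that has been found together with heterochromatin protein 1 on chromatin. There was 1 group with biological replicates 2 and 3, and nothing in the labels says which promoter drives the fusion or whether the line keeps untagged ADD1. The free description of both samples calls them input controls, whereas their antibody label names CG8290 and the same text points to another experiment as a possible control; they are read here as ChIP. A control library was not analysed here.

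In the early fly embryo the nuclei divide rapidly on maternal RNA and protein, then the zygotic genome is switched on while membranes grow between the nuclei and make the first cells, a step called cellularization. Zelda, the product of zld, is a zinc-finger pioneer factor that binds CAGGTAG and related sites at the earliest zygotic genes. Smaug, the product of smg, is an RNA-binding protein that clears maternal mRNAs, and Grainyhead, the product of grh, is a pioneer factor of epithelial enhancers and of the epidermal barrier. The products of bnk, nullo and Sry-alpha act on the actin network of the growing furrows. Sxl encodes the RNA-binding switch of female development, and sisA encodes a bZIP protein whose X-linked dose helps to turn on the early promoter of Sxl.

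The authors' final list of peaks had ADD1-GFP peaks at grh and Sxl and at none of the other 6 genes. Start sites with the core letters of the Zelda site, CAGGTA, are shown first, to give the letters the later counts refer to. Of the 6 such start sites of the 8 genes, 0 had a peak of the final list within 500 bp, against 10.8% of all such start sites, so with 6 start sites the count says little. The stretches come from the RefSeq sequence of the same assembly (Release 6, dm6 coordinates), read 5′ to 3′ on the strand of the gene. They run from 240 or 110 bases before the start site to 10 bases from it, that is chr3R:31193122-31193371 (plus strand), chrX:11322348-11322597 (minus), chrX:7049366-7049485 (plus), chr3R:30041107-30041226 (plus) and chrX:7092874-7092993 (minus). The last one lies at the most downstream start site of Sxl. Capitals mark CAGGTA on either strand (TACCTG where it is on the other strand) and TATAAA in the printed direction.
bnk: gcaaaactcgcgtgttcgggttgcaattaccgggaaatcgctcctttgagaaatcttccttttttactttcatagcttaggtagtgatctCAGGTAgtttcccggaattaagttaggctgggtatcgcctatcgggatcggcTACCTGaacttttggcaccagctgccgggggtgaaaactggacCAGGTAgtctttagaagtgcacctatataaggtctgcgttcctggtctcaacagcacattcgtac
sisA: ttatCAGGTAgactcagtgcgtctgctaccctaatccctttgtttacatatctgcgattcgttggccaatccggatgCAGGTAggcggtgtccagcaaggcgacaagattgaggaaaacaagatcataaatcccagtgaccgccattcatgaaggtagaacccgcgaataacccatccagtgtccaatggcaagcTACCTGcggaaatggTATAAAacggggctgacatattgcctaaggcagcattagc
nullo: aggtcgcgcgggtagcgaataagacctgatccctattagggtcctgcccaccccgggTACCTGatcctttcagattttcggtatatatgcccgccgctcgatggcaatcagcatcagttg
Sry-alpha: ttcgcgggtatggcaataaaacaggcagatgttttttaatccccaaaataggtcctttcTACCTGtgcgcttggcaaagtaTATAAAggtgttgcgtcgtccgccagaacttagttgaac
Sxl: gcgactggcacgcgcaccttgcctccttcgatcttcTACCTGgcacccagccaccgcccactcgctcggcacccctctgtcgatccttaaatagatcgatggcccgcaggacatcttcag

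The strongest regions of Sxl and of smg are shown for contrast, 100 bases to each side of the summit on the gene's strand, at chrX:7096623-7096823 and chr3L:8997806-8998006 (both minus). Capitals here mark CAGGTA on either strand, ATCGAT, the core of the site of the promoter factor Dref, and TCAGT, an initiator sequence. No stretch of grh is printed, although it held the strongest peak.
Sxl summit: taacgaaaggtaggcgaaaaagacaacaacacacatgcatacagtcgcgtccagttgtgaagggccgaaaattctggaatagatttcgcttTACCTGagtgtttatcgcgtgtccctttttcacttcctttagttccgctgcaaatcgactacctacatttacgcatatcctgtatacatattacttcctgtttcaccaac
smg summit: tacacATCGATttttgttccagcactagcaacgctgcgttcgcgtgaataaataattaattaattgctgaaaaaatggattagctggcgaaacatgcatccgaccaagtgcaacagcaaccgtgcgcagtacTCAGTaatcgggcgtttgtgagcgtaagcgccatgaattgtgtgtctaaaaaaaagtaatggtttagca

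The authors deposited 4 lists of regions: 30000 for replicate 2, 30000 for replicate 3, 30000 for both pooled, and 2478 peaks past a reproducibility (IDR) threshold, called optimal. The authors label the pooled list as peaks and background, and replicate lists of this length usually hold both too. Presence in them is therefore weak evidence of binding, and the rank in a list (1 is the strongest) says how a region stands. Signal is a value the authors' deposited lists give for each region; its scale is not stated, and it is compared only within a list. It ran from 132.9 to 2231.7 in the optimal list, with a median of 183.7, and from 32.9 in the pooled list. Read depth is unknown, because the lists hold no read counts. In whole embryos of mixed age, fewer nuclei with the protein bound and less protein per nucleus cannot be told apart.

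An optimal peak at a start site or in the body was found at 2 of the 8 genes, grh and Sxl, against 15.5% of all protein-coding genes. Within 500 bp of a start site there was an optimal peak at 1 of 8, Sxl, against 12.6%. In the pooled list 6 of the 8 had a region, all but bnk and nullo, against 56.8%. The authors' −log10 of the q-value for these pooled regions reached 3.53 at grh and Sxl and 3.28 at smg. It was at most 0.90 at zld, 0.38 at Sry-alpha and 0.10 at sisA, so the regions of these last genes are weak calls. Both replicate lists held a region at 4 of the 8, zld, grh, smg and Sxl, against 47.2%. With 8 genes, 1 gene more or less moves each share widely, so these counts are no result about the set. No test was made, since there is 1 group and the genes were chosen with results of these data known.

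**Figure D1:**
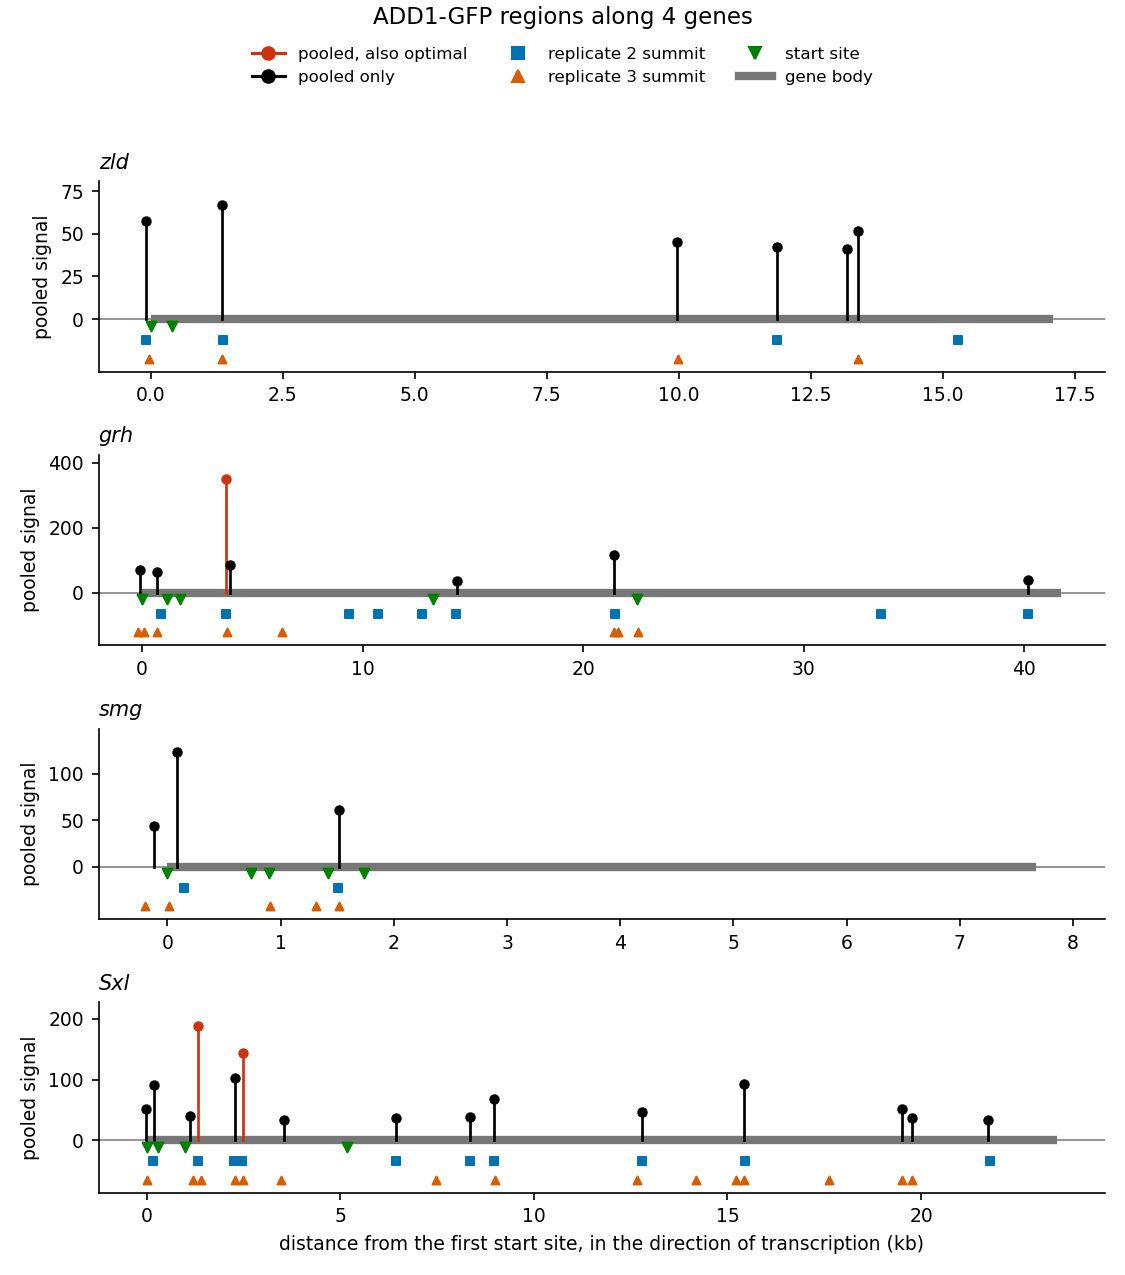
Signal in the pooled list (vertical axis, the authors' units) of each region of zld, grh, smg and Sxl against the distance of its summit from the first start site in kb. Red marks the 3 optimal peaks, at 3797 bp in grh and at 1330 and 2477 bp in Sxl, squares and triangles below the axis mark summits of replicates 2 and 3, and green marks start sites.

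The strongest region of the set lay in an intron of grh (FBgn0259211, chromosome 2R, 17801132 to 17842820, plus strand, 41.7 kb, 8 transcripts from 5 start sites). Its summit at position 17804929 was 3797 bp inside the gene and 2062 bp downstream of the nearest start site. The peak, 17804707 to 17805150, had a signal of 351 and rank 259 in the optimal and pooled lists. In the replicates, its strongest overlapping region had a signal of 150 and rank 411 in replicate 2 and a signal of 199 and rank 184 in replicate 3. Both replicates therefore placed it well inside their first 2478 regions. The peak lies in the first intron of 4 transcripts and in the second of 1, an intron of 4707 bp. The other 3 transcripts of the gene start farther downstream. No other gene has a start site within 500 bp of it.

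The start sites of grh had weaker regions, and these differed more between the replicates. The pooled list had a summit 115 bp before the first start site (signal 69, rank 8219) and one 421 bp before the second (signal 63.8, rank 9418). Both are nearer to the start of the antisense gene asRNA:CR45270, at 44 and 99 bp, than to a start of grh. A region overlapped the first of these in replicate 3 (rank 4576) and in replicate 2 there was none. The second was overlapped in replicate 2 at rank 10103 and in replicate 3 at rank 6136. Near the start sites grh had 1 region in replicate 2 and 4 in replicate 3. The 4 include a region at rank 18408 that overlaps the one of rank 4576. They also include one 78 bp downstream of the most downstream start site, at rank 25961.

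A further region of grh, summit 17822553, lay inside an annotated copy of the transposon roo, 1012 bp before the most downstream start site, which is inside the same copy. It had a signal of 116 and rank 3215 in the pooled list, below the optimal list, with rank 4525 in replicate 2 and rank 2910 in replicate 3. Repeat-masked (lower-case) bases of the reference sequence made up 33.1% of this region, against 17.6% of the grh peak. This share does not mark the transposon. It was 3.07% in an overlapping region of replicate 3 with its summit in the same roo copy. In a pooled region of Sxl with its summit in no annotated transposon it was 40.8%. The part of masked bases in the signal was not tested. The remaining pooled regions of grh had signals of 36.7 to 85.5, and the one in the 3′ untranslated region (39.3) is nearer to the start sites of CG30323, Orai and olf186-M than to one of grh.

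Sxl (FBgn0264270, chromosome X, 7074550 to 7098053, minus strand, 23.5 kb) had 2 optimal peaks and 15 pooled regions. The stronger peak, 7096501 to 7096944 with its summit at 7096723, had a signal of 188 and rank 1175, with rank 962 in replicate 2 and rank 1284 in replicate 3. Its summit lay 343 bp downstream of a start site used by 2 of the 25 annotated transcripts, and 1330 bp downstream of the first start site, which 18 transcripts use. The weaker peak had its summit at 7095576, a signal of 144 and rank 2133, with rank 1672 in replicate 2 and rank 3816 in replicate 3. Replicate 3 alone would have left the weaker peak out of its first 2478 regions, while the stronger one was inside them in both.

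Both Sxl peaks lie between the upstream start sites and the most downstream one, in an intron of 21 of the 25 transcripts. The other 4 transcripts begin at the downstream start site, 5170 bp inside the gene. Background knowledge places a late promoter of Sxl, active in both sexes, upstream of an early promoter that is active in female embryos only. The annotation does not name them. At the downstream start site the nearest summit was 1263 bp away in the pooled list, 1263 bp away in replicate 2, 1692 bp away in replicate 3 and 2693 bp away in the optimal list. The first start site of Sxl had a pooled summit 15 bp before it (signal 51.3, rank 14073), and the next one, at 285 bp, had one 93 bp before it (signal 91.3, rank 4960). The region overlapping both of these ranked 3716 in replicate 2 and 5227 in replicate 3.

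Farther inside Sxl the pooled list had 9 weaker summits more than 500 bp from a start site and outside the stretch of the weaker optimal peak. The strongest, at 7082636 in an intron, had a signal of 92.8, with rank 6683 in replicate 2 and rank 4650 in replicate 3. The others had signals of 33.4 to 67.3. Of these 9 summits, 6 are nearer to the start of mir-4956, which lies inside Sxl, than to one of Sxl; 3 of the 6 are also nearer to those of CG4607 and CG12541. The weakest (33.4) is nearer to that of lncRNA:CR46494. In Sxl, 4 stretches carried a pair of summits, 202 to 273 bp apart. An optimal peak outside the gene by the rule, 3608 bp before the first start site, had a signal of 168 and rank 1529. Of the 34 pooled summits of the 8 genes, 14 stood in 7 overlapping pairs, 201 to 273 bp apart, so that the 34 summits make 27 separate stretches.

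smg (FBgn0016070, chromosome 3L, 8990317 to 8997989, minus strand) had the strongest region without an optimal peak, and the replicates did not agree on it. The pooled summit at 8997906, 83 bp downstream of the first start site, had a signal of 123 and rank 2880, just below the lowest optimal signal of 132.9; the nearest value above that limit within the set was the 144 of Sxl. In replicate 2 the overlapping region ranked 12179, and in replicate 3 it ranked 1474 with a signal of 89.7. The strongest region of smg in replicate 2 was another one, 87 bp downstream of a start site 1418 bp inside the gene, at rank 11986. Near start sites smg had 2 regions in replicate 2 and 5 in replicate 3, but the 5 overlap one another in stretches that the 2 of replicate 2 also overlap. Upstream of the first start site of smg, CG5087 starts on the other strand and runs away from smg. The start site of CG5087 lies 278 bp from the summit, so the region cannot be assigned to either gene alone.

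zld (FBgn0259789, chromosome X, 19766465 to 19783548, minus strand, 17.1 kb), the gene of the activator Zelda, had 6 pooled regions, with ranks from 8668 to 20598. The summit before its first start site, 88 bp away, had a signal of 57.2 and rank 11468. The summits of the replicates lay 91 bp before that start site in replicate 2 and 37 bp before it in replicate 3, and the overlapping regions ranked 18268 and 10560. The strongest region, at 19782188 in a coding exon, had a signal of 66.9 and rank 8668, with rank 9968 in replicate 2 and rank 12786 in replicate 3. The other 4 lay in an intron of 1 of the 5 transcripts and had signals of 41.2 to 51.8, each overlapped in 1 replicate only; the highest rank of zld in replicate 3, 6564, was at such a region. These 4 summits are nearer to the start site of CG12702 than to one of zld. The nearest optimal peak, at Abcd3, was 32.2 kb from a start site of zld.

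Among the cellularization genes bnk (FBgn0004389, chromosome 3R, 31193362 to 31194389, plus strand), which lies inside mesh on the other strand, and nullo (FBgn0004143, chromosome X, 7049476 to 7050321, plus strand), which lies inside CG12541 on the other strand, had no region in any of the 4 lists, and Sry-alpha had weak regions in replicate 3 and the pooled list only. From the start site of bnk the nearest pooled summit was 3472 bp away, and from that of nullo it was 12187 bp away. Among protein-coding genes, 27% had their nearest pooled summit as far off as bnk and 9.59% as far off as nullo. The gene bodies are short, 1028 and 846 bp, and of the 6532 protein-coding genes under 2 kb 62.6% had no pooled region either.

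Sry-alpha (FBgn0003510, chromosome 3R, plus strand) shares its model, 30039719 to 30043071, with Sry-beta, because 1 of its 2 transcripts begins at the start site of Sry-beta and the other 1498 bp farther on. At the shared start site the pooled list had a summit 16 bp away with a signal of 49 and rank 15265, which is also 170 bp from the start of janA. At the start site of Sry-alpha alone there was a summit 157 bp before it with a signal of 34.9 and rank 27242. Replicate 3 had both, at ranks 18898 and 25615, and replicate 2 had neither. An optimal peak with a signal of 165 and rank 1574 lay 244 bp past the end of the model, 26 bp from the start site of the neighbour Sry-delta. It ranked 2989 in replicate 2 and 979 in replicate 3, and by the rule it does not belong to Sry-alpha.

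sisA (FBgn0003411, chromosome X, 11321579 to 11322357, minus strand) had a single pooled region, near the bottom of the list. Its summit, 453 bp before the start site, had a signal of 33.6 and rank 29012 of 30000. Replicate 3 had a summit 221 bp before the start site at rank 24535, and one 516 bp before it, just outside the window, at rank 14597 (signal 27.6); replicate 2 had none. Stronger pooled regions lay outside the rule. One 4215 bp before the start site had a signal of 107 and rank 3717, and the nearest summits to it ranked 2215 in replicate 2 and 12017 in replicate 3. Others, 2010 to 3017 bp from the start site, ranked 7268 to 8715 in the pooled list. The nearest optimal peak, at rtv, was 168 kb from the start site, and 1.86% of protein-coding genes were as far from one.

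**Figure D2:**
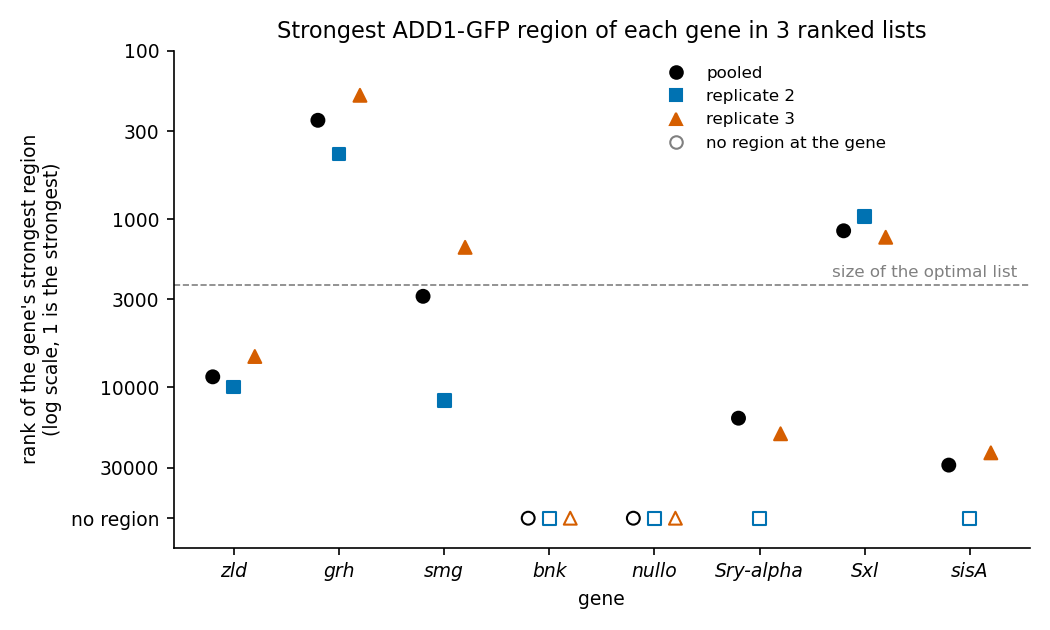
Rank of the strongest region of each gene (vertical axis, log scale, strongest at the top) in the pooled list and in those of replicates 2 and 3, with open symbols where a list has no region at the gene. grh and Sxl lie above the dashed line, at rank 2478, in each list, and smg does so in replicate 3 only.

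Of the 6 genes with a pooled region, zld, grh and smg had their strongest region at a higher rank in replicate 3 than in replicate 2, and Sry-alpha and sisA had one in replicate 3 only. Sxl was the other way round, at rank 1284 in replicate 3 and 962 in replicate 2. Within 500 bp of start sites the 8 genes had 16 regions in replicate 3 and 6 in replicate 2. Overlapping regions were not joined in these counts. Near start sites only replicate 3 had such overlaps, at grh, smg and Sxl, so the counts overstate its excess of separate stretches. Across the whole lists the start sites of protein-coding genes took 29.4% of the regions of replicate 3 and 23.9% of those of replicate 2, so replicate 3 had more regions at start sites in general. Over the 8 genes in full, 35 regions of replicate 3 and 25 of replicate 2 were counted, again without joining overlaps. Of the 34 pooled regions, 28 overlapped a region of replicate 3, 24 one of replicate 2, and 18 one of both, against 60.3% of all 30000 pooled regions in both. After joining overlapping regions, 13 of 27 stretches were in both replicates.

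Among all protein-coding genes longer ones held more regions, so each of the 8 was set beside genes of its own length. Among protein-coding genes of 20 kb and over, 38.2% had an optimal peak at a start site or in the body and the median number of pooled regions was 8 (quartiles 3 and 15). Here grh, the longest of the 8, had 7 and Sxl had 15, and 25.5% of genes of that length had as many as Sxl. zld with 6 regions stood at the upper quartile of genes of 10 to 20 kb (median 4), smg with 3 at that of genes of 5 to 10 kb (median 2), and Sry-alpha with 2 at that of genes of 2 to 5 kb (median 1). Of genes under 2 kb, the length of bnk, nullo and sisA, 7.88% had an optimal peak and 37.4% a pooled region.

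**Figure D3:**
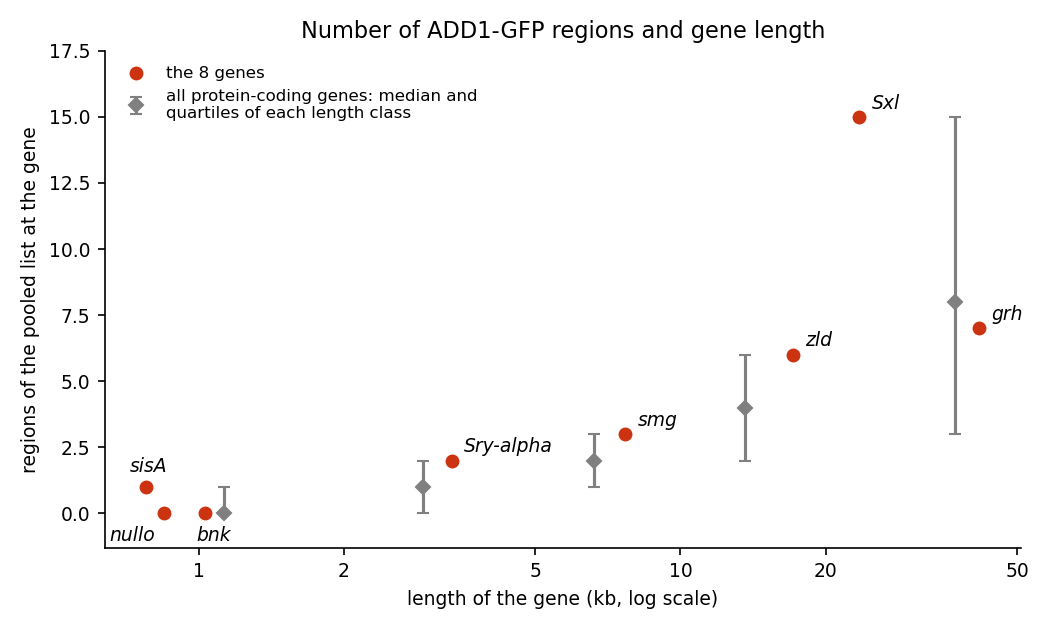
Number of pooled regions at each of the 8 genes (red, vertical axis) against the length of the gene in kb (log scale). Grey symbols show the median and quartiles of all protein-coding genes by length class, placed at the median length of the class, and Sxl with 15 regions reaches the upper quartile of its class while bnk and nullo are at 0.

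By place, 13 of the 34 pooled regions were near a start site, against 27.4% of all 30000 pooled regions near one of a protein-coding gene, and 15 in introns, 4 in coding exons and 2 in 3′ untranslated regions. Of the 3 optimal peaks 1 was near a start site, against 55.2% of all optimal peaks, and 2 were in introns. These shares are of unlike sets, because the regions of the 8 genes were taken at start sites or in bodies while the whole lists also hold intergenic regions. They therefore cannot be compared directly. The optimal peak near a start site also lay in an intron of most transcripts. Of the 21 start sites of the 8 genes, 13 had a pooled summit within 500 bp, against 47.8% of the 19276 start sites of protein-coding genes, and 1 had an optimal one, against 11.4%. The median GC content was 40.2% in the 34 regions and 41.7% in all pooled regions.

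The Zelda core CAGGTA, sought on both strands from 250 bases before a start site to 50 bases from it, was present at 6 of the 21 start sites, against 6.38% of the 19276 start sites of protein-coding genes. The longer CAGGTAG, which contains it, was present at 4 of the 21, against 1.69%. CAGGTA stood at 150, 98 and 55 bp before the start of bnk, at 236, 163 and 45 bp before that of sisA, at 53 bp before that of nullo, at 51 bp before the downstream start of Sry-alpha and at 74 bp before the downstream start of Sxl. The sixth start site was that of grh inside the roo copy, at 25 bp. The genes were chosen as a set of zygotic activation and cellularization genes, so the share is a description and was not tested.

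None of these 6 start sites had an optimal summit within 500 bp, and 2 had a pooled one, the weak regions of Sry-alpha and sisA given above. Of the 15 start sites without CAGGTA, 1 had an optimal and 11 a pooled summit. The start sites of all protein-coding genes were also divided into those with and without CAGGTA. An optimal summit stood at 10.8% of 1230 with it and at 11.5% of 18046 without it. A pooled summit stood at 49.3% with it and at 47.7% without it. For CAGGTAG, 7.08% of 325 with it and 11.5% of 18951 without it had an optimal summit, and 51.7% with it and 47.7% without it had a pooled one. None of these differences was tested. Around the summits themselves, within 100 bp, CAGGTA was found at 2 of the 34 pooled regions, against 4.9% of all pooled and 4.72% of all optimal summits. They were the stronger Sxl peak, where the match began 4 bp from the summit, and the grh region near asRNA:CR45270.

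**Figure D4:**
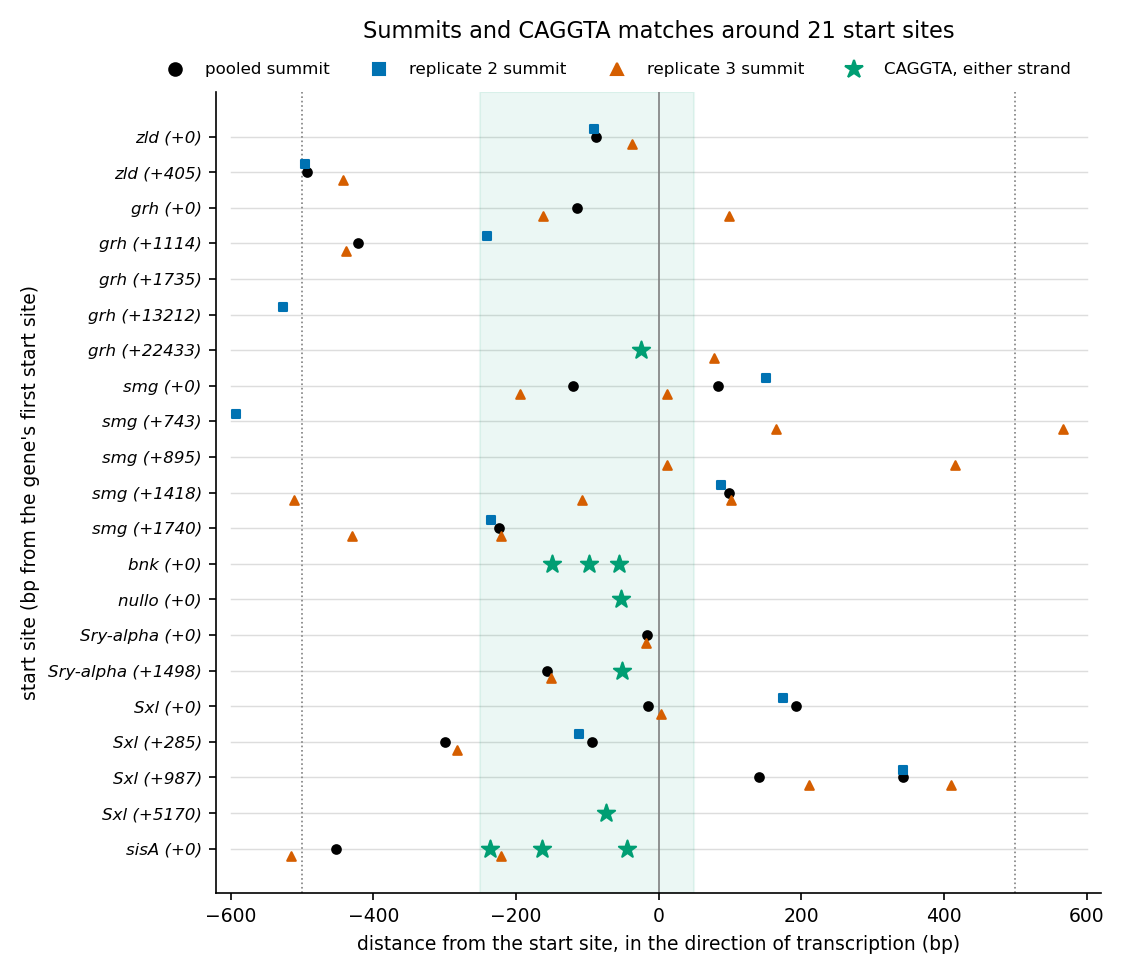
Summits of the pooled list and of both replicates around the 21 start sites of the 8 genes, against the distance in bp in the direction of transcription; each row is named by gene and by its distance from the first start site. Stars mark CAGGTA within the shaded window of 250 bases before to 50 from the start; the rows of bnk, nullo and the most downstream start of Sxl have stars and no summit.

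The other sequences were sought on both strands within 100 bp of the summits. ATCGAT was found within 100 bp of 4 of the 34 summits, against 8.97% of all pooled summits. It lay 17 bp from the summit at the shared start of Sry-alpha and Sry-beta and 90 bp from that at smg, 12 bp before the first smg start site. The other matches were away from start sites, 90 bp from a zld summit in an intron and 57 bp from a Sxl summit in a coding exon. GAGAG, the letters bound by GAGA factor, stood at 8 of 34 against 25.5%, and TATAAA at 2 of 34 against 22.3%. AACCGG, part of the Grainyhead site, stood at none of 34 against 4.66%. CACCTG, an E-box, stood at 1 of 34 against 7.08%, and TCAGT at 9 of 34 against 29.8%. A match of letters does not show binding of a factor.

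Other genes of the same processes were taken from 6 lists that hold 94 genes, chosen with earlier results of these data known. An optimal peak within 500 bp of a start site was found at 21 of them (22.3%), against the 12.6% of all protein-coding genes given above. The same 12.6% is given beside the count of each list, but the lists were not matched to all genes by length or number of start sites. Among all protein-coding genes, an optimal peak at a start site or in the body was present at 7.88% of those under 2 kb. It was present at 38.2% of those of 20 kb and over. The counts of the lists therefore cannot be read as an excess. Among early activators 3 of 4 had one, Trl, the gene of GAGA factor (signal 188, rank 1170), Clamp, whose product also binds GA repeats (155, rank 1837), and nej, the gene of the acetyltransferase CBP (147, rank 2054), whereas opa had none. With a window of 200 bp only Clamp had one. The Trl and Clamp peaks are shared with the start sites of CG42507 and lncRNA:CR44809.

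Of 26 further cellularization genes 7 (26.9%) had an optimal peak at a start site, against 12.6% of all protein-coding genes, and bnk, nullo and Sry-alpha had none. These last are short genes. An optimal peak at a start site or in the body was present at 7.88% of genes under 2 kb, the length of bnk and nullo. For genes of 2 to 5 kb, the length of Sry-alpha, it was 15.8%. These shares by length also count peaks in the body, unlike the 26.9% and the 12.6%. The 26 genes were not set beside genes of their own length, so length does not account for the contrast. The strongest were at Btk, a Tec-family kinase (signal 373, rank 217), klar, which acts in organelle transport (296), RhoGEF2, an activator of Rho1 (278), Src64B, a Src-family kinase (262), nuf, an adaptor of recycling endosomes (237), and Rab11, a GTPase of the same endosomes (218). The klar peak is shared with the start site of BORCS6 and the RhoGEF2 peak with that of asRNA:CR44390. Btk ranked 205 in replicate 2 and 265 in replicate 3, and nuf ranked 1832 in replicate 2 and 402 in replicate 3. Patj, Rab8 and Rho1 had no such peak. The difference between these genes and the 8 was not tested.

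Maternal RNA clearance genes had one in 4 of 17 cases: tral (188), brat (178), me31B (170) and plu (151). The products of tral and me31B are partners in repressing maternal mRNA, and that of brat binds such mRNA as Smaug does. The tral peak is shared with sti and lncRNA:CR45168 and that of plu with RpS18. Marf1, Not1 and Pop2 had none. Early cell cycle control genes had one in 6 of 13 cases: trbl (174), mei-41 (165), grp (162), lok (161), Cdk1 (148) and fzr (135), of which mei-41, grp, lok and Cdk1 share theirs with the start of a neighbour (TH1, squ, barr and mRpS7). None of the 6 was among the stronger 1239 of the optimal peaks. In replicate 2, trbl ranked 4037 and in replicate 3 it ranked 1000. CycA, CycB and E2f1 had none at a start site, although E2f1 had 2 optimal peaks elsewhere in its body. In place of the optimal list, the strongest 2478 regions of replicate 2 gave 4 genes and those of replicate 3 gave 8, CycA and E2f1 among the 8.

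Sex determination genes other than Sxl and sisA had an optimal peak at a start site in 1 of 21 cases, gro, the gene of the Groucho corepressor (247, rank 623, with rank 419 in replicate 2 and 1179 in replicate 3). Mettl14, Mettl3 and Ythdc1 had none. With the strongest 2478 regions of replicate 2 in place of the optimal list, vir had one too. Genes of the epidermal barrier, the tissue in which Grainyhead acts, had one in none of 13 cases, Cad96Ca, Ddc and Fas3 among those without, while msn had an optimal peak elsewhere in its body. With the strongest 2478 regions of replicate 3 in place of the optimal list, msn and shg had one at a start site. A pooled region lay at a start site of 17 of the 21 sex determination genes and 10 of the 13 epidermal barrier genes, against 48.9% of all protein-coding genes. The other lists were alike in this, with 22 of 26 cellularization, 12 of 17 maternal RNA clearance, 12 of 13 cell cycle and 4 of 4 early activator genes. Over all 6 lists it was 77 of 94, again without matching for gene length.

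By rank in the pooled and both replicate lists, the protein-coding genes closest to grh were aay (266, 401 and 177 in the pooled list, replicate 2 and replicate 3) and Gdh (254, 392 and 170), at distances of 0.077 and 0.136 on the log2 rank scale over 3 lists. Closest to Sxl were CG14442 (1209, 1048 and 1282) and Gdap2 (1152, 990 and 1406), at 0.130 and 0.140. The comparison covered 6448 genes with a region in all 3 lists, and likeness in rank says nothing about what the genes share.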

How the data were processed

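ADD1-GFP ChIP-seq was given as 2 biological replicates of 1 group. Per the deposited text files, each replicate list derives from that replicate's alignments and from 1 more file common to both, whose nature is not stated. Neither an aligner nor a peak caller nor the IDR threshold is named in the sources used here. The deposited signal is on the authors' scale. The authors' deposited −log10 of the q-value reached 3.53 in the optimal list, the value at the strongest peaks of grh and Sxl, and was used in no selection. Coordinates are dm6, per the labels; gene models are of Ensembl release 115, and sequences are RefSeq's of the same assembly. Depth is unknown, and the depth cannot be used to set intervals.

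Regions were assigned to genes with Python 3.11.15 and pandas 2.3.3, which was tested on simulated data. The 8 genes, the 6 gene lists and the 8 sequences sought were chosen with earlier results of these data known. Of the lists, nos matched no single gene model and is not analysed here, and 3 symbols were matched through synonyms. Other genes are named by a rule: those with a start site within 500 bp of a region of the 8 genes or nearer to it than theirs, up to 6 per list with an optimal peak at a start site (by signal) and 3 without (alphabetical), and 2 nearest in rank. Of the rule's first kind, 2 entries with no symbol inside mir-4956 are left out. Also rtv, Sry-delta, msn, shg, vir, mesh and the genes sharing a peak with a list gene were named after their values were seen. Alternatives were windows of 200 and 1000 bp, any overlap, the 5′ end of the model only, the stronger 1239 optimal peaks, and the strongest 2478 regions of each replicate. With 1 group no test between groups was possible.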

Additional observations from a re-analysis of the deposited data

How the results depend on the processing

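The count of genes with an optimal peak at a start site or in the body, 2 of 8, was the same 2 genes, grh and Sxl, with windows of 200 and 1000 bp, any overlap, the 5′ end of the gene model only and the stronger 1239 peaks. With 1 replicate's own list in place of the optimal one it was 2 to 3, smg being added without replicate 2. The count at a start site, 1 of 8, was 0 with a window of 200 bp and 0 with the 5′ end of the gene model only, since the Sxl summit lies 343 bp from an internal start site; it was 1 to 2 when each replicate was left out, smg again being added. The count with a pooled region, 6 of 8, was 5 with a window of 200 bp, which loses sisA, and 4 to 6 in the replicates' own lists, where replicate 2 lacks Sry-alpha and sisA. The count in both replicates stayed at 4 in the 4 alternatives run. Pooled regions in both replicates numbered 16 of 34 with summits within 200 bp, and 4 when only the strongest 2478 regions of each replicate were used. CAGGTA was near a summit or start site at 6 genes, also with 50 or 250 bp around summits, and CAGGTAG at 4. The 21 genes of the 6 lists became 10 with the stronger 1239 peaks, 16 and 24 with windows of 200 and 1000 bp, and 22 to 24 in the replicates' own lists. No paired analysis was possible because there is 1 group. Depth is unknown, so weak regions such as those of zld and sisA cannot be given an error beyond the 2 replicates and the deposited q-values. In the pooled list the −log10 of the q-value was at most 0.90 for zld and 0.10 for sisA.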
